A study of Caenorhabditis elegans with 12 samples.

Results

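Fasting of adult males of the nematode Caenorhabditis elegans was examined by setting 3 arrays of fasted males against 3 arrays of fed males, 6 of the 12 arrays of the series. The members were taken by their labels, as male worms of the wild-type strain N2 that were either fed ad libitum or deprived of food for 48 h. Food was withdrawn at day 2 of adulthood, so that both groups were whole worms of day 4. All worms of both groups had been raised at 20 C and separated from hermaphrodites by filtration as young adults. From then on they were kept on FUdR (5-fluoro-2'-deoxyuridine, at 200 ug/ml), an inhibitor of thymidylate synthesis that stops eggs from hatching, and the fed controls carried this agent too. The 6 arrays of hermaphrodites, fed and fasted in the same way, enter below as a comparison and through the shared estimate of the spread. The labels describe 3 independent experiments, each of which supplied 1 sample per group.

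In C. elegans the intestine stores most of the fat and makes digestive enzymes and antibacterial proteins, since the food is living bacteria. Without food the insulin-like signal to the receptor DAF-2 falls and the transcription factor DAF-16 enters nuclei, while the nuclear receptor NHR-49 and the factor HLH-30 act on genes of fat use and of lysosomes. A male is a worm with a testis-like gonad that makes sperm throughout adult life, a copulatory tail and a set of neurons that hermaphrodites lack. Whole worms were extracted, so fewer cells of a type and less RNA per cell cannot be told apart.

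Values are log2 signals of single probe sets, the groups of short probes that stand for a transcript on the Affymetrix C. elegans Genome Array. A change is the mean of the fasted minus the mean of the fed male arrays on this log2 scale, so that a change of 1 is 2-fold. Its standard error (SE, printed after ±) comes from a linear model over the 12 arrays, and a gene is said to have risen or fallen where the p-value, adjusted over all 15913 probe sets tested, lay below 0.05. For every gene named below as having risen or fallen, the 3 fasted arrays lay wholly above or wholly below the 3 fed ones, with the exception named. For genes named by size, p-value or sex difference this was a condition of the choice and not a result. Levels of different probe sets are not set against each other.

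Over all probe sets the 6 male arrays correlated at r = 0.938 to 0.952 within a group and 0.912 to 0.932 between fed and fasted males. The 5' over 3' log2 ratio of the Gapdh control lay between -0.30 and 0.05 in fed and -0.26 and -0.10 in fasted males, and that of actin between -1.08 and -0.77 and between -1.38 and -1.34. The actin ratio was thus lower on every fasted than on every fed male array, and its part in the results was not tested. Markers of male neurons were present, with pkd-2 at 9.89 ± 0.09 (SD, n = 3) in fed and 10.04 ± 0.33 (SD, n = 3) in fasted males and lov-1 at 7.74 ± 0.13 (SD, n = 3) and 7.95 ± 0.04 (SD, n = 3). Of 28 oocyte, eggshell and yolk markers none was at 0 on a male array. Their summed signal was 15669 to 18456 in fed males, 14149 to 18789 in fasted males and 345834 to 371968 in fed hermaphrodites.

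Fasting changed 4352 probe sets in males, 27.3% of those tested, with 3029 higher (19%) and 1323 lower (8.31%), and taken with 1 probe set per gene 3463 of 12207 genes (28.4%). Of the genes 2397 rose (19.6%) and 1066 fell (8.73%), and these shares are the background for every list below. The rises were many and small, with a median of 0.71, and the falls were fewer and larger, with a median of -1.202. At 2-fold or more 505 genes rose and 657 fell. At a change of 3 or more these numbers were 27 and 110. Between fed and fasted samples of equal number, taken as pairs, 2389 of the 2397 rises were above 0 in all 3 pairs, as were 1063 of the 1066 falls below 0. These genes were called from the same arrays, so this is no separate support for them. Fed and fasted male arrays did not overlap for 5124 probe sets that were higher (32.2%) and 1968 that were lower in fasted males (12.4%). In hermaphrodites the same test called 12.1% of genes, 6.08% higher and 6.01% lower, and the difference between the responses of males and hermaphrodites passed its own test for 5.75%.

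The median change of all genes was 0.24, and it was 0.23, 0.22 and 0.24 in the 3 pairs of equal number. After the median of each array was set equal, 1007 genes rose (8.25%) and 1410 fell (11.6%), so that the rises were no longer the larger number. After quantile normalization 1693 rose (13.9%) and 1311 fell (10.7%), and with scaling to hybridization controls 2717 rose (22.3%) and 822 fell (6.73%), so the larger direction depended on the scaling. Changes below are therefore to be read against a median of 0.24, and beside the counts on the deposited scale each list has those with medians set equal and those after quantile normalization.

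**Figure D1:**
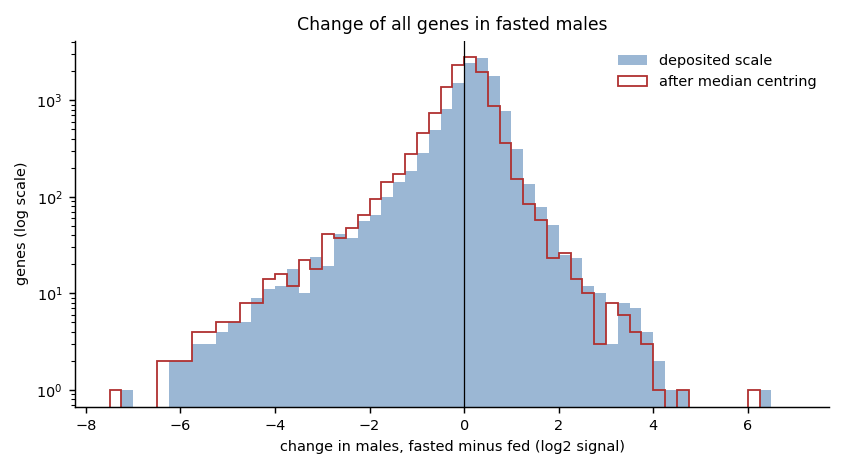
Number of genes (vertical axis, log scale) by change in males, fasted minus fed log2 signal (horizontal axis, bins of 0.25), for 12207 genes with 1 probe set each, on the deposited scale (filled) and after median centring (line). The left tail reaches farther than the right one, with 110 called falls and 27 called rises of 3 or more, and the peak of the deposited scale lies right of 0.

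The largest rises included genes of small chaperones, of a linker histone, of a lysozyme and of fat-handling proteins. The gene hsp-12.6, a DAF-16 target that encodes a small heat shock protein, stood at 2.07, 2.56 and 4.96 in the 3 fed arrays and at 9.28, 8.72 and 10.70 in the fasted ones. All fasted arrays lay above all fed ones, and the change was 6.36 ± 0.85 (adjusted p = 0.000205). Fed levels of this gene were among the low values of the scale, and with 64.6 units added to every signal the rise was 3.42. The related gene hsp-12.3 stood at 9.25, 9.54 and 9.86 in fed and 12.40, 11.86 and 12.18 in fasted males, a change of 2.60 ± 0.24 (adjusted p = 1.42e-05) that was smaller than the 5.31 in hermaphrodites (adjusted p of the difference = 0.00183). Fed hermaphrodites stood at 5.70 ± 0.45 (SD, n = 3) for hsp-12.3, among the low values of the scale. The difference was still called with the 64.6 units added. The gene hsp-16.20 rose by 3.75 ± 0.84 (adjusted p = 0.00568), from 6.05, 5.61 and 3.47 to 8.65, 8.66 and 9.07, with fed replicate 3 lower than the other fed arrays. With the same 64.6 units added its rise was 2.29.

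Other large rises differed in how close their replicates were. The linker histone gene hil-1, whose product packs DNA between nucleosomes, stood at 8.41, 8.04 and 8.61 in fed and 11.85, 11.74 and 11.72 in fasted males, a change of 3.42 ± 0.15 (adjusted p = 8.59e-08). The gene zig-3, whose product is an immunoglobulin-domain protein secreted by neurons, went from 7.32, 6.92 and 8.21 to 10.87, 11.39 and 11.31 (3.71 ± 0.29, adjusted p = 3.88e-06). Its rise was larger than that of 2.0996 in hermaphrodites (adjusted p of the difference = 0.0423, up to 0.0982 over the alternatives). The lysozyme gene ilys-3 was at 5.84, 6.01 and 6.66 in fed and 8.33, 10.09 and 10.99 in fasted males (3.63 ± 0.64, adjusted p = 0.00131), so that the fasted arrays differed among themselves by more than the fed ones. The lectin gene clec-76 rose by 2.65 ± 0.42 (adjusted p = 0.000722), and the chemoreceptor family gene srh-2 by 2.88 ± 0.61 (adjusted p = 0.00436), or by 1.77 with the 64.6 units added, and in the brighter of its probe sets by 2.097. The gene srap-1 rose by 3.09 ± 0.32 (adjusted p = 3.07e-05), with levels of 7.84, 8.02 and 7.98 in fed and 10.43, 10.75 and 11.93 in fasted males.

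Among the rises with the smallest p-values were smaller changes with close replicates. The gene bca-1, which encodes a carbonic anhydrase, stood at 7.61, 7.38 and 7.71 in fed and 9.78, 9.90 and 9.87 in fasted males (2.28 ± 0.21, adjusted p = 1.44e-05). The glutamate-gated chloride channel gene glc-1 went from 9.73, 9.83 and 9.75 to 11.27, 11.56 and 11.54 (1.69 ± 0.12, adjusted p = 2.16e-06), and the ubiquitin ligase gene siah-1 from 10.10, 10.33 and 9.94 to 11.72, 11.51 and 11.68 (1.51 ± 0.14, adjusted p = 1.13e-05). The ribosome assembly gene rsl-24D1 rose by 1.13 ± 0.10 (adjusted p = 1.16e-05). For the first 3 the gap between the groups was larger than the range within either group.

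Over the brightest probe set of each gene a fall of 5 or more was measured for 16 genes and a rise of that size for 1, hsp-12.6. The gene sysm-1 stood at 14.27, 14.53 and 14.51 in fed and 7.98, 7.31 and 6.73 in fasted males, a change of -7.096 ± 0.47 (adjusted p = 1.27e-06). The infection response gene irg-5 fell by 5.98 (13.53, 13.15 and 13.67 to 7.77, 7.21 and 7.42, adjusted p = 5.31e-08). That fall was deeper than the -2.61 of hermaphrodites (adjusted p of the difference = 0.000644). The gene drd-50, of a group named for lower levels under dietary restriction, changed by -5.24 ± 0.29 (adjusted p = 4.17e-07), and ctsa-1.2, which encodes a relative of the lysosomal protease cathepsin A, by -4.64 ± 0.32 (adjusted p = 1.45e-06). Levels of drd-50 were 13.73, 13.50 and 13.97 in fed and 9.30, 8.33 and 7.85 in fasted males. Those of ctsa-1.2 were 14.26, 14.27 and 14.15 and 10.19, 9.89 and 8.68. The gene spig-20 changed by -4.62 ± 0.39 (adjusted p = 7.53e-06). The falls of sdz-6 (-5.84), the lectin gene clec-72 (-5.59), the claudin-like gene clc-11 (-5.40) and the collagen gene col-158 (-5.21) reached low fasted levels, and with the 64.6 units added they were -2.33, -2.56, -2.63 and -2.35. The brighter of the clec-72 probe sets, which stands for the gene in the counts, changed by -3.94. Fasted replicate 3 of clc-11 was at 0.82, while its other fasted arrays were at 4.50 and 4.79.

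Among the falls with the closest replicates, the cystathionine beta-lyase gene cbl-1 stood at 12.05, 11.96 and 11.84 in fed and 8.19, 8.23 and 8.35 in fasted males (-3.70 ± 0.18, adjusted p = 1.3e-07). The glutathione S-transferase gene gst-24 went from 13.84, 13.84 and 14.03 to 11.13, 11.07 and 11.02 (-2.83 ± 0.11, adjusted p = 5.31e-08), and the glucuronosyltransferase gene ugt-26 from 13.17, 13.24 and 12.93 to 10.17, 9.89 and 9.88 (-3.14 ± 0.14, adjusted p = 8.59e-08). No array of one group came within 2 units of the other group for these 3 genes.

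**Figure D2:**
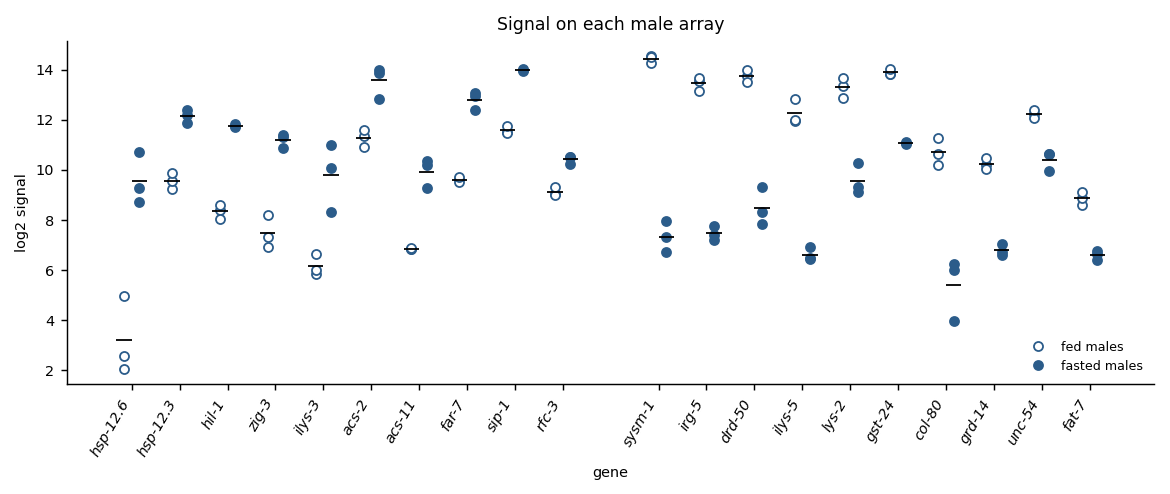
Log2 signal (vertical axis) of 20 genes on each of the 6 male arrays, with open circles for fed and filled circles for fasted males, and a bar at each group's mean. The 10 genes at the left were higher and the 10 at the right lower in fasted males, and for each of them the fed and fasted arrays do not overlap, a condition of choice for those named by size or p-value.

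Genes of fat use moved in both directions. Acyl-CoA synthetases join a fatty acid to coenzyme A, the step before it is burnt or built in. Of 23 such genes on the array 21 were tested, of which 8 rose and 3 fell, with a median change of 0.36 (4 and 3 after median centring, 7 and 3 under quantile normalization). The gene acs-2, which serves mitochondrial oxidation and is a standard marker of NHR-49 activity, stood at 10.90, 11.35 and 11.61 in fed and 13.88, 13.99 and 12.84 in fasted males. Every fasted array lay above every fed one, and the change was 2.28 ± 0.54 (adjusted p = 0.00773), while a second probe set of the gene gave 1.08 and did not pass the test (adjusted p = 0.177). The gene acs-11 rose by 3.08 ± 0.37 (adjusted p = 8.96e-05), from 6.83, 6.83 and 6.88 to 10.18, 10.34 and 9.27, and acs-19 and acs-17 rose by 1.78 and 1.07. In the other direction acs-1, needed for branched-chain fatty acids, changed by -1.70 and acs-7 by -1.13. The acs-7 change differed from the 0.26 of hermaphrodites (adjusted p = 0.0202, up to 0.0521 over the alternatives).

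Enzymes of oxidation fell more often than they rose. Of 31 tested genes of mitochondrial fatty acid oxidation (33 on the array) 1 rose and 5 fell, with a median change of -0.09 (1 and 9 after median centring, 1 and 7 under quantile normalization, 2 and 7 with the replicate block). The gene hacd-1, a 3-hydroxyacyl-CoA dehydrogenase, stood at 9.41, 9.84 and 9.96 in fed and 13.70, 13.76 and 11.55 in fasted males (3.27 ± 0.46, adjusted p = 0.000305), with fasted replicate 3 lower than the other fasted arrays. The genes that fell included the acyl-CoA dehydrogenase gene acdh-1 (-3.20), the carnitine palmitoyltransferase family gene cpt-6 (-2.94) and the enoyl-CoA hydratase gene ech-6 (-1.31). The list was written from textbook enzyme families, and members that serve other routes of breakdown were not set apart. In hermaphrodites the cpt-6 change was 0.31 (adjusted p of the difference = 0.00167). Of 16 genes of peroxisomal oxidation, which shortens very long chains and makes the ascaroside pheromones, 1 rose and 7 fell, with a median change of -0.52 (0 and 8 after median centring, 1 and 9 under quantile normalization, 2 and 9 with the replicate block). Among those that fell were the acyl-CoA oxidase genes acox-1.5 (-1.66 ± 0.25, adjusted p = 0.000502) and acox-3 (-0.98 ± 0.16, adjusted p = 0.000778) and the peroxisomal membrane transporter gene pmp-1 (-0.84 ± 0.21, adjusted p = 0.00949).

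Lipases were divided as well. Of 17 lipase genes 14 were tested, of which 3 rose and 4 fell, with a median change of -0.17 (3 and 6 after median centring, 3 and 5 under quantile normalization). The lysosomal lipase gene lipl-1 rose by 2.0995 ± 0.45 (adjusted p = 0.00436), from 8.74, 7.47 and 8.46 to 9.45, 10.66 and 10.86, against a change of -0.97 in hermaphrodites (adjusted p of the difference = 0.0189), and hosl-1, the hormone-sensitive lipase gene, rose by 0.71 ± 0.14 (adjusted p = 0.00268). The gene lips-10 fell by 2.4002 (10.42, 10.61 and 10.13 to 7.96, 8.10 and 7.90), where hermaphrodites changed by -0.08 (adjusted p of the difference = 0.000848), and lipl-2 changed by -1.25. Neither lipl-4, a lysosomal lipase of long-lived worms (0.78 ± 0.38, adjusted p = 0.156, and 0.0474 with the replicate block), nor the adipose triglyceride lipase gene atgl-1 (0.19 ± 0.21, adjusted p = 0.559) passed the test. The other probe sets of atgl-1 gave 0.53, which passed the test (adjusted p = 0.0206), and -0.08, which did not (adjusted p = 0.922). The value of the first atgl-1 probe set was -0.023 after median centring.

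Of 22 genes of synthesis, desaturation and elongation 6 rose and 1 fell, with a median change of 0.08 (2 and 2 after median centring, 6 and 2 under quantile normalization). The acetyl-CoA carboxylase gene pod-2, the first step of synthesis, rose by 1.14 ± 0.18 (adjusted p = 0.000713), and the elongase gene elo-1 by 0.73 ± 0.14 (adjusted p = 0.00217). The stearoyl-CoA desaturase gene fat-7 fell by 2.26, from 8.59, 8.87 and 9.12 to 6.66, 6.75 and 6.39 (adjusted p = 2.27e-05), while fat-6, which encodes a closely related enzyme, was at 13.64, 13.75 and 13.86 and 13.78, 13.43 and 13.48 (-0.18 ± 0.16, adjusted p = 0.448, and 0.044 after quantile normalization). Among 17 lipid carrier genes 2 rose and 3 fell, with a median change of -0.17 (1 and 5 after median centring, 3 and 2 under quantile normalization). The fatty acid and retinol binding gene far-7 stood at 9.62, 9.52 and 9.70 in fed and 12.93, 13.05 and 12.40 in fasted males (3.18 ± 0.20, adjusted p = 7.91e-07), and far-3 at 14.20, 14.26 and 14.31 and 11.57, 11.73 and 11.13 (-2.78 ± 0.44, adjusted p = 0.000698).

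Of 27 genes of the glyoxylate and citrate cycles and gluconeogenesis 7 rose and 2 fell, with a median change of 0.21 (1 and 4 after median centring, 9 and 0 under quantile normalization). The citrate synthase gene cts-1 rose by 0.84 ± 0.09 (adjusted p = 4.57e-05), and icl-1, the glyoxylate cycle enzyme that lets worms make sugar from fat, was at 13.48 ± 0.21 (SD, n = 3) in fed and 14.12 ± 0.15 (SD, n = 3) in fasted males (0.64 ± 0.23, adjusted p = 0.0604), which did not pass the test, although it did with the replicate block (adjusted p = 0.0448). Of 23 genes of glycolysis and glycogen 5 rose and 1 fell, with a median change of 0.15 (2 and 3 after median centring, 5 and 1 under quantile normalization), with the pyruvate kinase gene pyk-2 (1.09) and the phosphoglucose isomerase gene gpi-1 (0.79) among the rises. Trehalose is a disaccharide that worms make from glucose, and of its 8 genes 3 rose and 0 fell, with a median change of 0.33 (3 and 1 after median centring, 3 and 1 under quantile normalization). The synthase gene tps-1 rose by 0.95 ± 0.13 (adjusted p = 0.000285) and the trehalase gene tre-1 by 0.84 ± 0.19 (adjusted p = 0.00548).

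More amino acid breakdown genes fell than rose, while in the methionine cycle rises were the larger number. Of 30 amino acid breakdown genes 2 rose and 9 fell, with a median change of 0.11 (1 and 10 after median centring, 3 and 7 under quantile normalization, 6 and 11 with the replicate block). Along the tryptophan and tyrosine routes the dioxygenase gene haao-1 changed by -2.81 ± 0.38 (adjusted p = 0.000227), the kynureninase gene kynu-1 by -1.47 ± 0.18 (adjusted p = 0.000114) and the isomerase gene gst-42 by -1.32 ± 0.23 (adjusted p = 0.00123). The ornithine aminotransferase gene oatr-1 stood at 12.28, 12.22 and 12.15 in fed and 10.53, 10.72 and 10.67 in fasted males (-1.58 ± 0.12, adjusted p = 2.4e-06). Of 23 genes of the methionine cycle and of phosphatidylcholine synthesis 8 rose and 3 fell, with a median change of 0.25 (6 and 4 after median centring, 8 and 3 under quantile normalization). The S-adenosylmethionine synthetase genes sams-5 and sams-4 rose by 2.83 ± 0.48 (adjusted p = 0.000989) and 1.09 ± 0.12 (adjusted p = 3.96e-05). The methionine synthase reductase gene mtrr-1 and the choline kinase gene cka-1 rose by 0.97 ± 0.16 (adjusted p = 0.000833) and 0.96 ± 0.16 (adjusted p = 0.000945), where hermaphrodites changed by 0.00 and 0.09 (adjusted p of the difference = 0.0299, up to 0.0711 over the alternatives and 0.0464, up to 0.133 over the alternatives). A second cka-1 probe set gave no called difference (adjusted p = 0.187). Levels of sams-5 were 8.20, 8.30 and 9.14 in fed and 11.54, 11.31 and 11.30 in fasted males, with no overlap.

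Genes of the nutrient-sensing pathways themselves moved by small amounts. Of 44 genes of insulin, AMP-activated kinase and TOR signalling 11 rose and 1 fell, with a median change of 0.27 (5 and 2 after median centring, 7 and 3 under quantile normalization, 17 and 2 with the replicate block). The phosphatidylinositol 3-kinase gene of the insulin pathway, age-1, rose by 0.88 ± 0.17 (adjusted p = 0.0023). The age-1 change was -0.13 in hermaphrodites (adjusted p of the difference = 0.0326, up to 0.0762 over the alternatives). A second age-1 probe set rose by 1.401, without a called difference (adjusted p = 0.0974). The gene aakg-4, a gamma subunit of the AMP-activated kinase, rose by 1.097 ± 0.20 (adjusted p = 0.00193), and mxl-2, a partner of Myc-like factors, by 1.26 ± 0.13 (adjusted p = 3.16e-05). The transcription factor genes daf-16 (0.38 ± 0.15, adjusted p = 0.0861, and 0.0194 with the replicate block), hlh-30 (0.29 ± 0.38, adjusted p = 0.632) and pha-4 (-0.31 ± 0.29, adjusted p = 0.481) did not pass the test in their brightest probe sets. A second probe set did pass for hlh-30 (0.86, adjusted p = 0.00442) and daf-16 (0.64, adjusted p = 0.0314), and that of pha-4 gave 0.27 (adjusted p = 0.369). The brightest probe set of hlh-30 was at a change of -0.073 without fasted replicate 1. The receptor gene nhr-49 rose by 0.59 ± 0.15 (adjusted p = 0.0115), a call that ended after median centring, where the change was 0.38 (adjusted p = 0.0871). Insulin-like peptides are the ligands of DAF-2, and of 20 tested genes (24 on the array) 1 rose and 5 fell, with a median change of -0.05 (1 and 5 after median centring, 1 and 5 under quantile normalization, 2 and 6 with the replicate block). The gene ins-7 fell by 2.09, from 12.53, 12.44 and 11.9998 to 10.33, 10.45 and 9.92 (adjusted p = 0.000254), which was a smaller fall than the -4.37 of hermaphrodites (adjusted p of the difference = 0.0101).

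Among DAF-16 targets there were rises and no fall on the deposited scale. Of 21 targets 9 rose and 0 fell, with a median change of 0.71 (8 and 2 after median centring, 10 and 1 under quantile normalization). Besides hsp-12.6, hsp-12.3 and hil-1 the water channel gene aqp-1 rose, from 11.04, 10.83 and 11.14 in fed to 13.73, 13.43 and 12.82 in fasted males (2.32 ± 0.29, adjusted p = 0.000113). The mitochondrial superoxide dismutase gene sod-3 was at 9.96, 9.48 and 9.86 in fed and 9.59, 8.85 and 9.11 in fasted males (-0.58 ± 0.25, adjusted p = 0.109, and 0.0131 with the replicate block). In hermaphrodites it changed by 0.93, and the difference between the sexes passed the test (adjusted p = 0.032, up to 0.0758 over the alternatives).

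The alpha-crystallin family gene sip-1, which belongs to the list of heat shock proteins, stood at 11.50, 11.48 and 11.75 in fed and 13.94, 14.002 and 14.04 in fasted males. The groups were far apart, with a change of 2.42 ± 0.14 (adjusted p = 7.15e-07), and a second probe set gave 2.23. In hermaphrodites sip-1 was at 14.79 ± 0.13 (SD, n = 3) in fed worms and changed by -0.05, and the difference of the responses had an adjusted p of 0.000119. The highest signal of any probe set on a hermaphrodite array was 14.83 to 15.18, which left little room for a rise. A weaker response of sip-1 in hermaphrodites is therefore not shown. Over the whole list of 32 heat shock proteins and chaperones 15 rose and 3 fell, with a median change of 0.46 (7 and 3 after median centring, 13 and 3 under quantile normalization). Those that fell were hsp-17 (-2.30), hsp-43 (-1.71) and hsp-25 (-0.63), which encode small heat shock proteins too. Among 25 superoxide dismutase, catalase, thioredoxin and peroxiredoxin genes 5 rose and 2 fell, with a median change of 0.14 (3 and 3 after median centring, 4 and 2 under quantile normalization), with the extracellular dismutase gene sod-4 at 1.21 ± 0.19 (adjusted p = 0.000544) and the mitochondrial thioredoxin gene trx-2 at 0.84 ± 0.10 (adjusted p = 5.65e-05).

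In each list of digestion and antibacterial genes falls outnumbered rises. Of 26 cysteine and aspartic protease genes 22 were tested, of which 2 rose and 12 fell, with a median change of -0.41 (1 and 12 after median centring, 3 and 11 under quantile normalization). The aspartic protease genes asp-14 and asp-13 fell by 4.00 and 3.01 (adjusted p = 5.93e-06 and 4.29e-05), deeper than the -1.81 and -1.24 of hermaphrodites (adjusted p of the difference = 0.0215, up to 0.0545 over the alternatives and 0.0467, up to 0.103 over the alternatives). Levels of asp-14 were 13.73, 13.39 and 13.90 in fed and 10.32, 9.36 and 9.34 in fasted males. The falls of asp-17 (-2.48 ± 0.36, adjusted p = 0.000368) and of the cathepsin B-like gene cpr-3 (-1.503 ± 0.20, adjusted p = 0.000237) were not shown to differ from those of hermaphrodites (-1.24 and -1.18, adjusted p = 0.171 and 0.561). The cathepsin B-like gene cpr-9 changed by -1.15 ± 0.11 (adjusted p = 1.44e-05) in males and -3.01 in hermaphrodites (adjusted p of the difference = 0.000119), and cpr-1 by -1.12 and -2.68 (adjusted p of the difference = 0.0236, up to 0.0572 over the alternatives). These 2 genes, with the smaller fall in males, were picked after their values were seen.

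Lysozymes break bacterial cell walls, and of 12 tested genes (16 on the array) 1 rose and 6 fell, with a median change of -0.78 (1 and 6 after median centring, 1 and 6 under quantile normalization). The gene ilys-5 stood at 11.97, 12.83 and 11.996 in fed and 6.48, 6.94 and 6.43 in fasted males (-5.65 ± 0.25, adjusted p = 8.59e-08), and lys-2 at 12.88, 13.33 and 13.66 and 10.26, 9.32 and 9.11 (-3.73 ± 0.28, adjusted p = 2.65e-06). The gene lys-7 was at 14.76, 15.16 and 15.40 in fed males and at 12.66, 12.23 and 12.56 in fasted ones, and its change of -2.63 was deeper than that of -0.77 in hermaphrodites (adjusted p of the difference = 0.00173). The one rise was that of ilys-3, given above. Of 41 antimicrobial peptide and saposin-like genes 2 rose and 16 fell, with a median change of -0.58 (1 and 20 after median centring, 3 and 15 under quantile normalization), among them spp-23 (-4.43), spp-4 (-4.07), and the caenacin genes cnc-4 (-2.46) and cnc-3 (-2.21), which are made in the skin.

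Infection response, dod and drd genes fell, and none rose. Of 22 tested genes (26 on the array) 0 rose and 15 fell, with a median change of -2.46 (0 and 15 after median centring, 0 and 15 under quantile normalization), against a median of -1.37 in hermaphrodites. Besides irg-5 and drd-50 they included irg-4, at 12.24, 10.93 and 11.41 in fed and 7.34, 6.46 and 6.26 in fasted males. It changed by -4.84 in males and by -1.59 in hermaphrodites (adjusted p of the difference = 0.0155). Fed hermaphrodites stood at 7.26 ± 0.89 (SD, n = 3) for irg-4, with less room for a fall than in males. A weaker response of irg-4 in hermaphrodites is therefore not shown. The gene dod-19 stood at 12.72, 13.26 and 13.27 in fed and 9.43, 8.44 and 9.32 in fasted males (-4.02 ± 0.27, adjusted p = 1.34e-06). These genes are named for their response to bacterial infection, to DAF-16 or to dietary restriction, and the list was collected by name.

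C-type lectins, sugar-binding proteins of which many respond to microbes, moved both ways. Of 220 genes 137 were tested, of which 16 rose and 32 fell, with a median change of -0.08 (13 and 37 after median centring, 15 and 31 under quantile normalization). Over the brightest probe set of each gene the deepest fall was that of clec-174, at 13.75, 14.93 and 15.17 in fed and 10.26, 9.76 and 10.71 in fasted males (-4.37 ± 0.41, adjusted p = 1.44e-05), followed by clec-3 (-4.02). The gene clec-54 stood at 6.13, 6.62 and 6.75 in fed and 9.07, 8.94 and 9.25 in fasted males (2.59 ± 0.19, adjusted p = 2.37e-06), and in hermaphrodites it changed by 0.02 (adjusted p of the difference = 0.000776). The gene clec-183 changed by -2.89 ± 0.60 (adjusted p = 0.00367) in males and by 1.599 in hermaphrodites (adjusted p of the difference = 0.0129). Its level in fed hermaphrodites was 2.92 ± 1.52 (SD, n = 3), among the low values of the scale, so opposite responses are not shown.

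Falls outnumbered rises among glutathione S-transferases and UDP-glucuronosyltransferases, enzymes that attach groups to foreign compounds. Of 33 tested transferase genes (40 on the array) 0 rose and 12 fell, with a median change of -0.39 (0 and 16 after median centring, 0 and 16 under quantile normalization). The deepest was gst-10 (-3.53, 12.69, 11.92 and 12.2004 in fed and 8.34, 8.83 and 9.05 in fasted males), and gst-27 changed by -2.73 ± 0.25 (adjusted p = 1.37e-05). The fall of gst-24 given above was deeper than the -1.44 of hermaphrodites (adjusted p of the difference = 0.00117). Of 53 tested UDP-glucuronosyltransferase genes 8 rose and 19 fell, with a median change of -0.27 (3 and 21 after median centring, 5 and 22 under quantile normalization), with ugt-29 at -2.69 ± 0.17 (adjusted p = 1.12e-06) and, in the other direction, ugt-18 at 1.26 ± 0.22 (adjusted p = 0.00139). The response of ugt-18 was opposite in hermaphrodites, at -1.05 (adjusted p of the difference = 0.00294). Of 55 cytochrome P450 genes 10 rose and 12 fell, with a median change of 0.03 (5 and 14 after median centring, 6 and 14 under quantile normalization), among them cyp-14A5 (-3.09 ± 0.17, adjusted p = 3.96e-07) and, with the deepest fall of the list, cyp-35D1 (-3.78 ± 0.79, adjusted p = 0.00385, or -1.44 with the 64.6 units added), and of 27 short-chain dehydrogenase genes 5 rose and 7 fell, with a median change of 0.17 (0 and 10 after median centring, 3 and 10 under quantile normalization), with the deepest fall in dhs-7 (-3.15 ± 0.27, adjusted p = 8.49e-06). Among 5 flavin-containing monooxygenase genes 2 rose and 1 fell, with a median change of 0.21 (0 and 1 after median centring, 2 and 1 under quantile normalization), and the one that fell was fmo-3 (-1.82 ± 0.25, adjusted p = 0.000269).

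**Figure D3:**
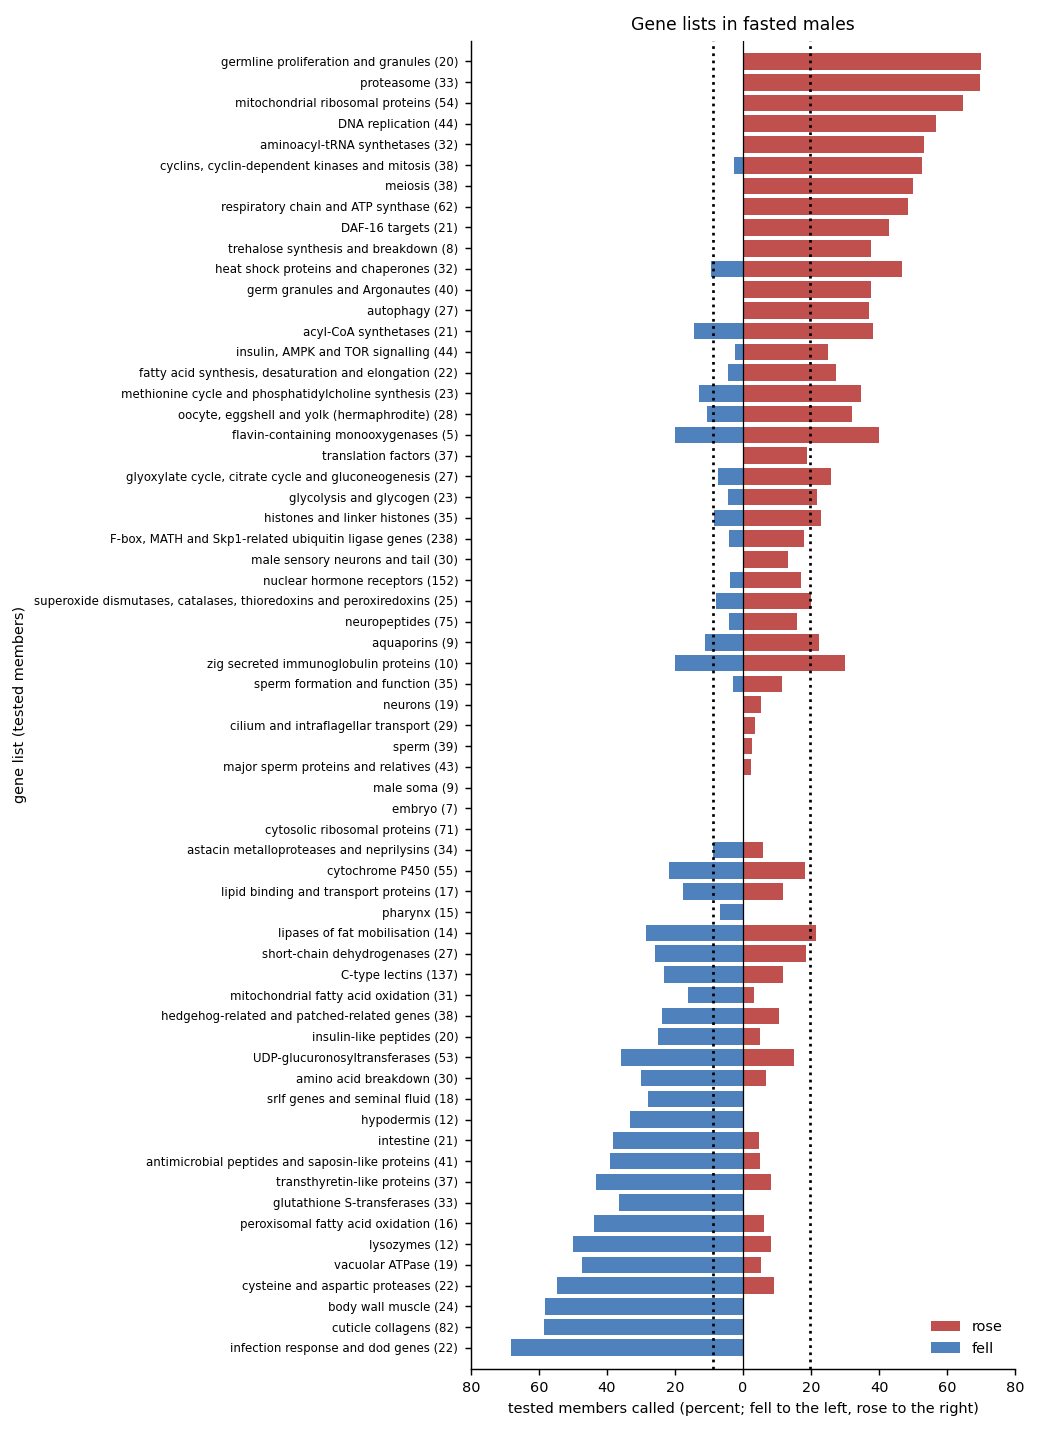
Share of tested members of each gene list that rose (right, in percent) or fell (left, in percent) in fasted against fed males on the deposited scale, with the number of tested members after each name. The dotted lines mark the shares over all genes, 19.6% and 8.73%. Infection response genes, collagens and body wall muscle markers reach farthest left, and germline markers, proteasome and mitochondrial ribosome genes farthest right.

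The machinery of lysosomes, autophagy and the proteasome did not move one way. The vacuolar ATPase acidifies lysosomes, and of its 19 genes 1 rose and 9 fell, with a median change of -0.36 (0 and 14 after median centring, 0 and 6 under quantile normalization). The subunit genes vha-19, vha-12 and vha-5 changed by -1.23, -1.13 and -1.12, and for vha-19 hermaphrodites changed by -0.32 (adjusted p of the difference = 0.0149, up to 0.0885 over the alternatives). Of 27 autophagy genes 10 rose and 0 fell, with a median change of 0.53 (5 and 0 after median centring, 8 and 0 under quantile normalization, 17 and 0 with the replicate block). The gene epg-6, which acts in autophagosome formation, stood at 8.56, 8.60 and 8.51 in fed and 9.71, 9.63 and 9.93 in fasted males (1.201 ± 0.11, adjusted p = 1.36e-05, adjusted p of the difference from the 0.58 of hermaphrodites = 0.0421, up to 0.138 over the alternatives), and epg-4 rose by 0.97 ± 0.18 (adjusted p = 0.00195). The proteasome, the main machine of protein breakdown in the cytosol, gave rises and no fall. Of 33 subunit genes 23 rose and 0 fell, with a median change of 0.52 (7 and 0 after median centring, 24 and 0 under quantile normalization). In its regulatory cap rpn-9, rpt-1, rpn-13 and rpn-8 rose by 0.75, 0.74, 0.68 and 0.67, with adjusted p of 0.001, 0.00103, 0.001 and 0.000424. In hermaphrodites the vacuolar ATPase, autophagy and proteasome lists had median changes of -0.08, 0.15 and 0.10. The difference of the responses was called on the deposited scale for 5 of the 33 proteasome genes, each higher in males, against 4.19% of all genes. For rpn-9, rpt-1, rpn-13 and rpn-8 it did not hold in every alternative, with adjusted p up to 0.122, 0.119, 0.159 and 0.138.

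The ribosomes of the cytosol and of mitochondria were set side by side. None of 71 cytosolic ribosomal protein genes passed the test (limma, adjusted p), and their median change was 0.00, below the 0.24 of all genes, while 0 had an unadjusted p below 0.05. After median centring 5 of them fell, and under quantile normalization 6 rose. Of 54 mitochondrial ribosomal protein genes 35 rose and 0 fell, with a median change of 0.51 (12 and 0 after median centring, 18 and 0 under quantile normalization). Among them mrps-17 rose by 1.15 ± 0.26 (adjusted p = 0.00589), mrps-2 by 1.002 ± 0.17 (adjusted p = 0.000943) and mrps-11 by 0.97 ± 0.11 (adjusted p = 5.64e-05). Levels of mrps-11 were 10.56, 10.76 and 10.89 in fed and 11.73, 11.68 and 11.69 in fasted males. Of 32 aminoacyl-tRNA synthetase genes, which charge tRNAs with amino acids, 17 rose and 0 fell, with a median change of 0.48 (3 and 0 after median centring, 12 and 0 under quantile normalization), with tars-1 at 0.72 ± 0.12 (adjusted p = 0.000728) and cars-1 at 0.76 ± 0.14 (adjusted p = 0.00177). Of 62 respiratory chain and ATP synthase genes 30 rose and 0 fell, with a median change of 0.32 (4 and 0 after median centring, 34 and 0 under quantile normalization). Rises there were small, with nduf-2.2 at 0.76 ± 0.12 (adjusted p = 0.000794) and ndub-8 at 0.75 ± 0.13 (adjusted p = 0.00116).

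Many genes of the dividing and meiotic germline rose. In males the germline holds dividing cells, cells in meiosis and sperm, and these 3 stages are read out by different genes. Of 44 DNA replication genes, all on the array tested, 25 rose and 0 fell, with a median change of 0.55 (14 and 0 after median centring, 18 and 0 under quantile normalization). The clamp loader gene rfc-3 stood at 9.05, 8.98 and 9.31 in fed and 10.22, 10.50 and 10.52 in fasted males (1.303 ± 0.12, adjusted p = 1.29e-05), and the nucleotide supply gene dut-1 at 8.25, 7.72 and 8.21 and 9.01, 9.48 and 9.38 (1.23 ± 0.16, adjusted p = 0.00018). In hermaphrodites they changed by 0.18 and 0.07 (adjusted p of the difference = 0.005 and 0.0149). The thymidylate synthase gene tyms-1, named here after its values were seen, rose by 1.06 ± 0.14 (adjusted p = 0.000157). Its enzyme is the target of FUdR, which both groups received. The sliding clamp gene pcn-1 did not pass the test (0.38 ± 0.16, adjusted p = 0.113, and 0.0105 with the replicate block). In hermaphrodites the same list had a median of 0.14. The difference of the responses was called on the deposited scale for 8 of its 44 genes, each higher in males, against 4.19% of all genes.

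Rises outnumbered falls among mitotic and meiotic genes too. Of 38 cyclin, cyclin-dependent kinase and mitosis genes 20 rose and 1 fell, with a median change of 0.46 (7 and 1 after median centring, 8 and 1 under quantile normalization, 22 and 2 with the replicate block). The spindle checkpoint gene mdf-2 rose by 1.07 ± 0.13 (adjusted p = 9.16e-05) and the centromeric histone gene hcp-3 by 0.76 ± 0.12 (adjusted p = 0.000794). The one that fell was the cyclin D gene cyd-1 (-1.63 ± 0.52, adjusted p = 0.036), the exception whose fed and fasted arrays overlapped. The cyd-1 call ended with array weights, scaling to hybridization controls, male arrays alone, no variance trend and each pseudocount, and with 64.6 units added the change was -0.49. It ended as well without fasted replicate 1 or 3 or fed replicate 2 or 3 (adjusted p = 0.1, 0.135, 0.0868 and 0.106), and its other probe set gave 0.68. Of 38 meiosis genes 19 rose and 0 fell, with a median change of 0.64 (10 and 0 after median centring, 15 and 0 under quantile normalization, 29 and 0 with the replicate block). The gene dsb-1, needed for the DNA breaks that start meiotic recombination, stood at 6.57, 6.81 and 6.75 in fed and 7.80, 7.52 and 7.64 in fasted males (0.95 ± 0.14, adjusted p = 0.000458), and in hermaphrodites it changed by 0.14 (adjusted p of the difference = 0.0391, up to 0.116 over the alternatives). The synaptonemal complex gene syp-4 and the DNA repair gene brc-1 rose by 0.93 ± 0.14 (adjusted p = 0.000419) and 1.12 ± 0.28 (adjusted p = 0.0107), and a second brc-1 probe set gave 0.47, which did not pass (adjusted p = 0.25). Of 40 germ granule and Argonaute genes 15 rose and 0 fell, with a median change of 0.45 (8 and 0 after median centring, 10 and 0 under quantile normalization), among them the Dicer-related helicase gene drh-3 (0.995 ± 0.17, adjusted p = 0.00127) and the P granule gene deps-1 (0.90 ± 0.16, adjusted p = 0.00147). The summed signal of the 20 germline markers was 9270 to 10276 in fed and 12734 to 15434 in fasted males. Of these 20 markers 14 rose and 0 fell, with a median change of 0.59 (6 and 0 after median centring, 9 and 0 under quantile normalization).

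Few sperm genes were called, in a test whose spread is shared with the hermaphrodite arrays. Of 43 major sperm protein genes and relatives, which make up the crawling machinery of nematode sperm, 1 rose and 0 fell, with a median change of -0.05 (0 and 0 after median centring, 0 and 0 under quantile normalization, 2 and 0 with the replicate block). Of 35 sperm formation and function genes 4 rose and 1 fell, with a median change of 0.49 (2 and 1 after median centring, 2 and 0 under quantile normalization, 7 and 1 with the replicate block). Fed and fasted male arrays did not overlap for 21 of these 35 that were higher and 2 that were lower in fasted males. Over all probe sets these shares were 32.2% and 12.4%. In fed hermaphrodites the summed signal of the major sperm protein list ranged from 6632 to 56029, so the shared spread could hide small changes in males. The summed signal of 39 sperm markers ranged from 532872 to 705708 in fed and from 484744 to 649936 in fasted males, so the groups overlapped. Major sperm protein genes are near-identical copies whose probe sets cannot be told apart with certainty.

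Some markers of oocytes rose in males as well. Of 28 oocyte, eggshell and yolk markers 9 rose and 3 fell, with a median change of 0.35 (6 and 4 after median centring, 7 and 4 under quantile normalization). The RNA-binding protein gene mex-5 stood at 9.13, 9.44 and 9.21 in fed and 10.30, 10.40 and 10.22 in fasted males (1.05 ± 0.11, adjusted p = 3.3e-05), against a change of -0.01 in hermaphrodites (adjusted p of the difference = 0.00443). The related gene oma-1 stood at 7.74, 7.85 and 8.04 and 8.63, 8.80 and 9.10 (0.97 ± 0.14, adjusted p = 0.000287), against -0.20 (adjusted p of the difference = 0.00678). These 2, perm-2 and the marker genes of muscle and intestine given below, other than unc-54, were named after their values were seen. The yolk gene vit-2 was at 7.76, 7.82 and 6.56 in fed and 7.101, 7.49 and 6.89 in fasted males (-0.22 ± 0.28, adjusted p = 0.618) and the yolk receptor gene rme-2 at 6.69, 6.91 and 6.77 and 7.12, 6.64 and 7.71 (0.37 ± 0.21, adjusted p = 0.226), and neither passed the test. The eggshell gene perm-2 fell by 1.39 (adjusted p = 1.4e-05). The summed signal of the whole list, given above, overlapped between fed and fasted males, and the part of any hermaphrodites among the males in these changes was not tested.

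**Figure D4:**
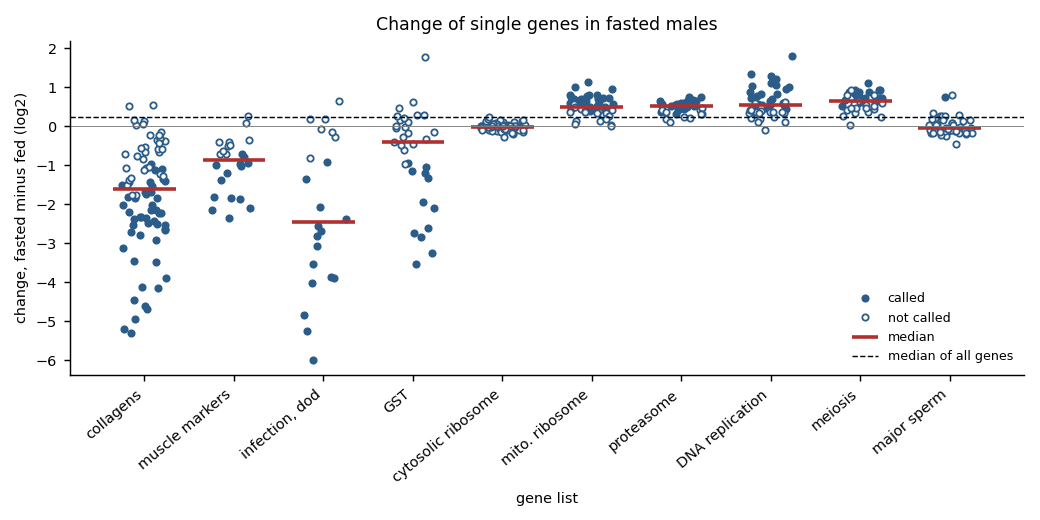
Change of each tested gene in fasted against fed males (vertical axis, log2 units, 1 point per gene) in 10 gene lists, with filled points for called genes and a bar at the list's median. The dashed line is the median of all genes, 0.24. Collagens and muscle genes lie mostly below 0 and proteasome, DNA replication and meiosis genes mostly above the dashed line, while cytosolic ribosomal and major sperm protein genes straddle 0.

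Few genes of the male body were called. Of 30 male sensory neuron, tail and sex determination genes 4 rose and 0 fell, with a median change of 0.24 (0 and 0 after median centring, 2 and 0 under quantile normalization). None of the 9 tested male soma markers passed the test (limma, adjusted p, 0 with an unadjusted p below 0.05), nor after median centring or quantile normalization. Their male arrays did not overlap for 4 higher and 1 lower in fasted males, against 32.2% and 12.4% of all probe sets. The spread in this test is shared with hermaphrodites, where these markers were low (summed signal 211 to 237 when fed). For lov-1 the SE was 0.96 and the SD in fed hermaphrodites 2.65, so small changes in males could be missed. Among the srlf genes and the genes of seminal fluid 18 were tested, of which 0 rose and 5 fell, with a median change of -0.27 (0 and 7 after median centring, 1 and 5 under quantile normalization). The gene srlf-1 stood at 14.13, 14.10 and 13.82 in fed and 12.77, 13.08 and 12.25 in fasted males (-1.32 ± 0.18, adjusted p = 0.000209). Of 29 cilium genes 1 rose and 0 fell, with a median change of 0.20 (1 and 1 after median centring, 1 and 1 under quantile normalization, 2 and 0 with the replicate block). Neuropeptides carry signals between neurons, and of 75 tested genes 12 rose and 3 fell, with a median change of 0.23 (3 and 7 after median centring, 8 and 5 under quantile normalization, 20 and 6 with the replicate block), with flp-10 at 1.73 ± 0.25 (adjusted p = 0.000406) and flp-2 at 0.70 ± 0.13 (adjusted p = 0.00188); a second flp-2 probe set, at 0.64, did not pass (adjusted p = 0.0602).

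Cuticle collagens fell. They are secreted by the skin, the hypodermis, and form the outer coat of the worm. Of 147 collagen genes on the array 82 were tested, of which 0 rose and 48 fell, with a median change of -1.605 (0 and 53 after median centring, 0 and 52 under quantile normalization). The gene col-80 stood at 11.26, 10.21 and 10.65 in fed and 6.23, 6.03 and 3.97 in fasted males (-5.29 ± 0.49, adjusted p = 1.44e-05), col-101 at 13.62, 13.48 and 13.34 and 9.52, 8.84 and 7.29 (-4.93 ± 0.40, adjusted p = 5.62e-06), and col-159 at 10.15, 9.49 and 9.98 and 6.25, 4.57 and 4.74 (-4.69 ± 0.80, adjusted p = 0.00109). The gene col-98 changed by -4.46 ± 0.59 (adjusted p = 0.000198). With the 64.6 signal units added the changes of col-80, col-101, col-159 and col-98 were -3.94, -4.67, -3.27 and -3.68. The fall of col-183, at -1.4999 ± 0.41 (adjusted p = 0.0163), was smaller than the -3.85 of hermaphrodites (adjusted p of the difference = 0.0375, up to 0.154 over the alternatives). The col-183 call ended without fasted replicate 3 (adjusted p = 0.0596) or fed replicate 3 (0.0572). Beside the collagens, the summed signal of 15 hypodermis markers was 5709 to 6500 in fed and 2720 to 4186 in fasted males. Of the 12 tested markers 0 rose and 4 fell (0 and 4 after median centring, 0 and 4 under quantile normalization).

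Hedgehog-related genes encode secreted proteins and patched-related genes their receptor-like partners, and falls outnumbered rises among them. Of 81 such genes 38 were tested, of which 4 rose and 9 fell, with a median change of 0.02 (1 and 10 after median centring, 1 and 10 under quantile normalization, 7 and 10 with the replicate block). The gene grd-14 stood at 10.19, 10.46 and 10.02 in fed and 7.04, 6.60 and 6.73 in fasted males (-3.43 ± 0.20, adjusted p = 6.58e-07), and grd-5 changed by -3.27 ± 0.32 (adjusted p = 2.09e-05). Both fell deeper than in hermaphrodites, where the changes were -1.68 and -1.33 (adjusted p of the difference = 0.00678 and 0.0311, up to 0.0731 over the alternatives). The transthyretin-like genes, a family of secreted proteins, gave 37 tested members, of which 3 rose and 16 fell, with a median change of -0.32 (3 and 20 after median centring, 3 and 13 under quantile normalization). The gene ttr-15 stood at 14.21, 14.36 and 14.35 in fed and 12.82, 13.19 and 12.92 in fasted males (-1.33 ± 0.11, adjusted p = 8.16e-06) and changed by -0.27 in hermaphrodites (adjusted p of the difference = 0.0054), while ttr-5 and ttr-37 rose by 1.06 and 1.33. Of 34 astacin and neprilysin genes 2 rose and 3 fell, with a median change of 0.16 (1 and 4 after median centring, 2 and 4 under quantile normalization, 2 and 6 with the replicate block).

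Body wall muscle genes fell and none rose. Of 25 markers 24 were tested, of which 0 rose and 14 fell, with a median change of -0.86 (0 and 20 after median centring, 0 and 18 under quantile normalization), against 9 falls and a median of -0.42 in hermaphrodites. The myosin heavy chain gene unc-54 stood at 12.22, 12.08 and 12.41 in fed and 10.65, 10.63 and 9.94 in fasted males (-1.83 ± 0.18, adjusted p = 2.44e-05). The troponin T genes mup-2 and tnt-2 and the calponin-related gene clik-1 fell by 2.0996, 2.15 and 2.35. For the tropomyosin gene lev-11 and the minor myosin gene myo-3 the responses differed between the sexes, at -1.21 and -1.01 in males and -0.02 and 0.38 in hermaphrodites (adjusted p of the difference = 0.00541 and 0.00555). Of the 4 other lev-11 probe sets 1 fell by 1.63 and 3 did not pass the test (-0.68, -0.15 and 0.00), and for none of the 4 was the difference between the sexes called (adjusted p = 0.102 to 0.677). The summed signal of the muscle markers was 120605 to 129281 in fed and 60746 to 75668 in fasted males, with no overlap. Of 15 pharynx markers 0 rose and 1 fell, with a median change of 0.19 (0 and 2 after median centring, 0 and 2 under quantile normalization).

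Other tissues were read from their markers. Of 21 intestine markers 1 rose and 8 fell, with a median change of -0.40 (0 and 11 after median centring, 1 and 9 under quantile normalization, 2 and 8 with the replicate block), and their summed signal was 109150 to 138122 in fed and 76426 to 102071 in fasted males. The brush border actin gene act-5 stood at 12.25, 11.87 and 11.94 in fed and 10.24, 9.93 and 10.37 in fasted males (-1.84 ± 0.15, adjusted p = 6.4e-06), and the intermediate filament genes ifc-2 and ifb-2 changed by -1.02 and -0.88. Since protease, lysozyme and detoxification genes are largely intestinal, their falls ran beside that of these markers, whose part was not tested. Of 19 neuron markers 1 rose and 0 fell, with a median change of 0.11 (0 and 1 after median centring, 1 and 1 under quantile normalization, 3 and 0 with the replicate block), with summed signals of 22751 to 24333 in fed and 25677 to 26312 in fasted males.

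Nuclear hormone receptors are ligand-gated transcription factors, of which 152 of 254 genes were tested and 26 rose and 6 fell, with a median change of 0.31 (8 and 7 after median centring, 15 and 9 under quantile normalization). The largest rise was that of nhr-21, at 7.33, 6.99 and 6.24 in fed and 10.51, 9.79 and 8.37 in fasted males (2.70 ± 0.47, adjusted p = 0.00119), and nhr-193 rose by 1.83 ± 0.28 (adjusted p = 0.000489). Of 414 F-box, MATH and Skp1-related genes, which pick targets for ubiquitin ligases, 238 were tested and 43 rose and 10 fell, with a median change of 0.23 (20 and 15 after median centring, 32 and 14 under quantile normalization). The gene fbxa-24 stood at 7.102, 6.91 and 7.07 in fed and 8.93, 9.23 and 10.16 in fasted males (2.41 ± 0.32, adjusted p = 0.000206). Of 35 histone genes 8 rose and 3 fell, with a median change of 0.27 (4 and 5 after median centring, 6 and 5 under quantile normalization), with the H3.3 gene his-71 at 1.15 ± 0.20 (adjusted p = 0.0014) and his-38 at -1.32 ± 0.18 (adjusted p = 0.000269), and histone genes are near-identical copies. Of 10 zig genes 3 rose and 2 fell, with a median change of 0.13 (1 and 2 after median centring, 3 and 2 under quantile normalization), of 9 aquaporin genes 2 rose and 1 fell, with a median change of 0.28 (1 and 1 after median centring, 2 and 1 under quantile normalization), and of 37 translation factor genes 7 rose and 0 fell, with a median change of 0.22 (2 and 2 after median centring, 10 and 2 under quantile normalization).

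More genes were called in males than in hermaphrodites, where 742 genes rose and 734 fell. A total of 530 genes fell in both sexes, 49.7% of the falls in males and 72.2% of those in hermaphrodites. For rises the number was 353, or 14.7% and 47.6%. Calls of opposite direction were few, with 19 genes up in males and down in hermaphrodites and 7 the other way. A gene called in males alone is not thereby shown to differ. The test of the difference passed for 702 genes (5.75%), 511 with the higher change in males (4.19%) and 191 with the lower one (1.56%). Over probe sets 608 had the higher and 232 the lower change in males. After median centring these numbers were 231 and 358, and after quantile normalization 363 and 365, so the larger direction depended on the scaling. On the deposited scale the test of the difference passed for 583 of the 3463 genes called in males (16.8%). Of the 2025 male rises that were not called in hermaphrodites it passed for 383. These calls depended on single arrays and on the scale more than the calls in males did. Of the 702 genes 219 kept a called difference in every alternative, and the count over probe sets, 840 (5.28%), was 1590 with the replicate block and 431 with scaling to hybridization controls. It was 428 and 455 without fasted hermaphrodite replicate 2 or 3, 437 and 439 without fed hermaphrodite replicate 1 or 2, 468 without fasted male replicate 2, and 448 and 497 without fed male replicate 1 or 2. Of the 64 genes named here with a called difference 28 kept it in every alternative, and for the others quoted above the highest adjusted p over the alternatives stands beside it. For hsd-2, a hydroxysteroid dehydrogenase family gene, the levels were 8.50, 9.31 and 9.08 in fed and 5.15, 5.65 and 5.48 in fasted males (-3.54 ± 0.30, adjusted p = 6.8e-06) against a change of 0.21 in hermaphrodites (adjusted p of the difference = 0.00113). The lectin genes clec-64 and clec-74 fell by 4.01 and 3.07 in males against changes of 0.07 and -1.01 (adjusted p of the difference = 0.025, up to 0.0658 over the alternatives and 0.00222). With 64.6 signal units added the clec-64 change was -2.102. Levels in fed hermaphrodites were 5.02 ± 0.26 for hsd-2, 2.31 ± 0.86 for clec-64 and 6.36 ± 0.12 for clec-74 (SD, n = 3). For hsd-2 and clec-64 these were among the low values of the scale, with little room for a fall. A weaker response of hsd-2 and clec-64 in hermaphrodites is therefore not shown.

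**Figure D5:**
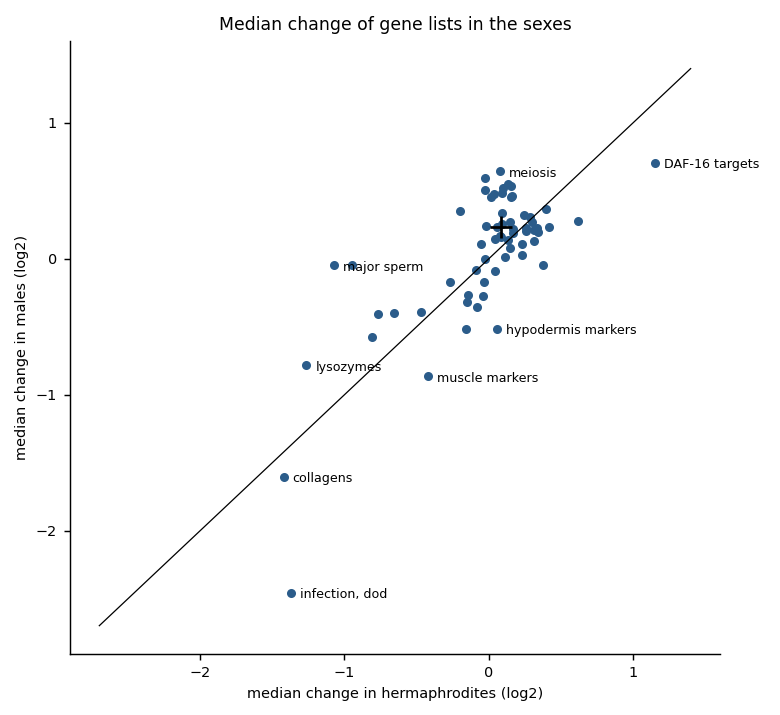
Median change of each gene list in males (vertical axis) against that in hermaphrodites (horizontal axis), fasted minus fed log2 signal, 1 point per list, with the line of equality and a cross at the medians of all genes. Proteasome, mitochondrial ribosome, DNA replication and meiosis lists lie above the line, and infection response genes and muscle markers below it.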

How the data were processed

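Log2 signals of 12 Affymetrix arrays were made by the authors with MAS5, per the submitters' processing notes, with each array scaled to a trimmed mean signal of about 500. Of 22625 probe sets 15913 above log2 6.01 (the 40th percentile) on at least 3 arrays were tested, control probe sets left out. The deposited values were fitted without further scaling in limma 3.58.1 (R 4.3.3), with 4 group means and a variance trend, and p-values were adjusted by Benjamini-Hochberg over all probe sets. The fit was tested on simulated data. In counts and lists a gene was represented by its brightest probe set, and named genes chosen by size or p by the probe set that met the rule (another one for clec-72, sip-1 and srh-2), and probe sets that match several genes went unnamed. Some probe sets bind near-identical transcripts. The number of arrays limits the precision, and no array was dropped.

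Members and lists were chosen with earlier results of these data known. The rule for named genes took, from called probe sets with 1 gene and no overlap between fed and fasted males, the 12 largest rises and falls, the 12 with the smallest p in each direction and 6 per direction with the largest sex difference, and added up to 4 called members per direction and list, in the list's probe set, and 18 fixed genes. That rule let the text print fewer genes, by their roles. Beyond that, preference was given, after the values were seen, to genes stable under the alternatives. Of 787 called list members and rule genes 435 lost no call in any alternative, and 368 also had no value moved over 1.5 times. Among the 159 called genes named here these numbers were 156 and 147, so the stability of the named genes says nothing about that of the other genes. A further 14 named genes lie outside the rule.

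Samples of equal number were taken to come from 1 experiment. In males the deviations of fed and fasted samples from their group means correlated at 0.157, 0.119 and 0.274 for equal numbers. For unequal numbers the correlations were -0.210 to 0.099. Equal numbers thus gave the highest value for each sample, but the values were weak. The main fit left this pairing out, and the replicate block was an alternative.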

Additional observations from a re-analysis of the deposited data

Results flagged for a closer look

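The fasting change differed between males and hermaphrodites by the test of the difference for 64 named genes. Values are the change in males minus that in hermaphrodites, in log2 units. Those of clec-183, hsd-2, clec-64, irg-4, hsp-12.3 and sip-1 are to be read with their levels in fed hermaphrodites, given above. For clc-11 fed hermaphrodites stood at 5.55 ± 0.26 (SD, n = 3), among the low values of the scale, with little room for a fall. A weaker response of clc-11 in hermaphrodites is therefore not shown. With a called difference in every alternative, the change was lower in males for clec-183 (-4.49), hsd-2 (-3.75), irg-5 (-3.37), irg-4 (-3.25), cpt-6 (-3.25), hsp-12.3 (-2.72), lips-10 (-2.32), clec-74 (-2.06), lys-7 (-1.86), grd-14 (-1.75), his-38 (-1.73), perm-2 (-1.43), gst-24 (-1.395), myo-3 (-1.39), lev-11 (-1.18) and ttr-15 (-1.06).

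It was higher in males, with a called difference in every alternative, for acs-1 (1.05), mex-5 (1.06), rfc-3 (1.12), dut-1 (1.15), oma-1 (1.17), ttr-37 (1.28), cpr-9 (1.86), ins-7 (2.28), ugt-18 (2.31), sip-1 (2.47), clec-54 (2.57) and lipl-1 (3.07).

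For the other 36 genes the call ended in at least 1 alternative. The change was lower in males for clc-11 (-5.29), clec-64 (-4.07), clec-174 (-2.65), asp-14 (-2.19), grd-5 (-1.94), asp-13 (-1.77), drd-50 (-1.69), sod-3 (-1.51), acs-7 (-1.396), cyp-14A5 (-1.0002), vha-19 (-0.92) and ech-6 (-0.81).

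It was higher in males for epg-6 (0.62), rpn-8 (0.63), rpn-13 (0.63), tars-1 (0.64), mrps-11 (0.66), rpn-9 (0.70), rpt-1 (0.74), mdf-2 (0.79), dsb-1 (0.81), hcp-3 (0.84), cka-1 (0.87), deps-1 (0.90), siah-1 (0.90), mrps-2 (0.94), mtrr-1 (0.97), mxl-2 (0.997), age-1 (1.01), bca-1 (1.24), cpr-1 (1.56), zig-3 (1.61), srap-1 (1.71), fbxa-24 (1.77), acs-11 (1.96) and col-183 (2.35). Groups of 3 arrays are too small for a test of single outlying arrays. A second probe set of the gene gave no called difference for age-1 (adjusted p = 0.0974), cka-1 (0.187), rpt-1 (0.209), siah-1 (0.0653) and srap-1 (0.406), nor did any of the 4 others of lev-11.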

How the results depend on the processing

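The count of probe sets called in males, 4352, ranged from 3339 to 4383 when 1 array was left out, with 2211 to 3049 higher and 1107 to 1346 lower. Among list members the ranges were 617 to 773, 326 to 451 and 278 to 326, around 770. For the difference between the sexes, 840, they were 428 to 899, 282 to 610 and 127 to 289. Median centring left 1279 probe sets higher in males and 190 list members higher, and with the replicate block as well 1722, 2089 lower and 252 list members higher. A 2-fold minimum left 1495 probe sets (666 higher, 829 lower) and 333 list members (109 higher). The replicate block alone gave 5398 probe sets in males, within 1.5 times, and among named genes it changed the calls of daf-16, icl-1, lipl-4, pcn-1 and sod-3, given beside their values, and no other.

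The difference between the sexes was called for 1522 probe sets with array weights (1075 higher, 447 lower), 431 with hybridization controls (318 and 113), 1590 with the replicate block (1126 and 464) and 500 with the 2-fold minimum (310 higher). Differences with the higher change in males numbered 379 when no variance trend was fitted, 363 after quantile normalization and 231 after median centring. Those with the lower change numbered 358 after centring, 687 with centring and block, 439 with the pseudocount at the 40th percentile and 365 with quantile normalization. The cause was not tested.

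Of 172 named genes, 5 that were not called changed sign: atgl-1 (-0.023 after median centring, with or without the replicate block, and -0.020 after quantile normalization), fat-6 (0.044 after quantile normalization), hlh-30 (-0.073 to 0.641 when 1 array was left out), and lov-1 (-0.0060) and pkd-2 (-0.066) after median centring, with or without the block. The planned description of promoter motifs was not run, as no promoter sequences were used here.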
